A study of Mus musculus with 15 samples.

Results

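Genes known from Sertoli cells, the somatic cells that enclose germ cells in the testis cords, were followed through RNA-seq of gonocytes sorted from foetal mouse testes at E16.5. The genes were listed by name from their known expression in Sertoli cells, and the 10 (Sox9, Sox8, Wt1, Gata4, Amh, Dhh, Inha, Inhbb, Fshr and Clu) were looked up among 54838 gene identifiers. All 10 were found. This list and the other gene lists below were drawn up with earlier results of these data known. The shares of all genes given beside them are therefore for description only. The study asked what TEX15, a nuclear protein of foetal germ cells, does in the silencing of transposons directed by the PIWI protein MIWI2. It deposited 3 control and 3 knockout gonocyte libraries. The controls were Tex15+/-; Miwi2 tdTom/+ and the knockouts Tex15-/-; Miwi2 tdTom/+, so that every library carried at least 1 null Tex15 allele and 1 Miwi2 allele that drives the fluorescent protein tdTomato. Cells were sorted by FACS for tdTomato after trypsin digestion of the whole testis, and the null allele carries an insertion in the gene that introduces stop codons and came from 1 founder. The number of animals behind a library was not given in the sources used here, so the p-values measure the spread between these libraries, which may be technical.

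Sertoli cells are specified in the foetal gonad when SOX9 comes on, and SOX8, WT1 and GATA4 work beside it in the same cells. They then secrete anti-Müllerian hormone (AMH), which removes the Müllerian ducts, and desert hedgehog (DHH), which acts on the Leydig and peritubular cells outside the cords. Inhibins, follicle-stimulating hormone receptor (FSHR) and clusterin belong to the same cells from foetal life onwards. Gonocytes lie inside the cords in direct contact with Sertoli cells. Several of these genes are also active in other cells of the testis, GATA4 and WT1 among them.

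Each library held between 4893265 and 5697020 reads assigned to genes, and a count of 3 reads, taken as the one-sided 95% upper limit that a count of 0 allows, corresponds to 0.545 to 0.602 CPM (reads scaled to a common library size). The intervals given elsewhere are two-sided and reach somewhat higher at 0 reads. Intervals and limits cover counting error only. Tex15 had 8183, 8315 and 9082 reads in control replicates 1, 2 and 3 and 2338, 1267 and 1310 reads in knockout replicates 1, 2 and 3, so every knockout library lay below every control. The fitted log2 fold change was -2.35 (SE 0.229, adjusted p = 0.0112, Benjamini-Hochberg adjusted p of the edgeR quasi-likelihood test), just above the threshold of 0.01 used for calls. The 12 germ cell genes examined, from Ddx4 to Pou5f1, summed to 4177 to 4432 CPM in controls and to 4170, 4261 and 4306 CPM in the knockouts. Single genes varied more than the sum. Dazl, picked after its values were seen, was at 292, 276 and 255 CPM in controls and at 238, 204 and 236 CPM in knockouts. Of the 11 germ cell genes tested, 4 had a log2 fold change above 0, and none was called. The knockout libraries differed among themselves in genes of somatic cells, and results below are given for single libraries for that reason. They also differed in Tex15, at 0.291 (95% counting interval 0.278 to 0.303) times the pooled controls in replicate 1. In replicates 2 and 3 it was at 0.143 (0.135 to 0.151) and 0.155 (0.146 to 0.163) times.

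The 10 Sertoli cell genes together took few reads in the controls and several times more in 2 of the 3 knockout libraries. Their summed level was 53.3, 53.7 and 56.6 CPM in the controls. In knockout replicate 1 it was 45.7 CPM, below every control. In knockout replicates 2 and 3 it was 249 and 187 CPM, which is 4.57 and 3.43 times the control mean. All 10 genes lay above every control in replicate 2, as did 21.8% of the 42446 genes with a read, and all 10 did so in replicate 3, as did 24.1%. In replicate 1, 2 of the 10 did so, beside 24.4% of those genes. Reads of these genes were scarce throughout: the 10 held 268 to 309 reads in a control library, 228 in knockout replicate 1, 1372 in replicate 2 and 983 in replicate 3, which is 0.0241% of the gene reads in the highest library. In bulk RNA of sorted cells, fewer cells of a type and less RNA per cell cannot be told apart.

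**Figure D1:**
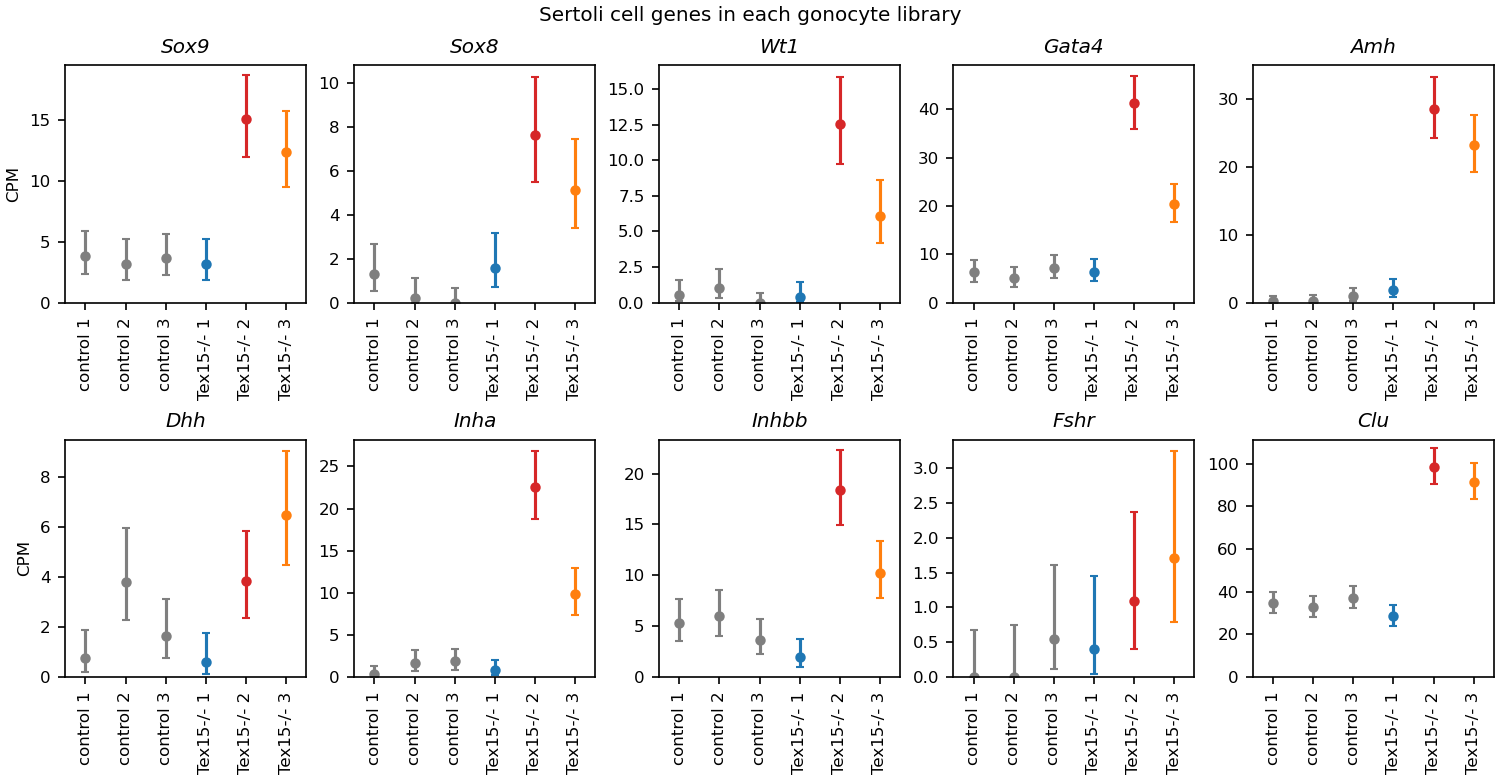
CPM (linear axis from 0, a separate scale in each panel) of the 10 Sertoli cell genes in the 3 control (grey) and 3 Tex15-/- libraries (blue, red and orange). Points are single libraries and bars are exact 95% Poisson intervals of the count. Replicates 2 and 3 of the knockout lie above the controls in every panel, by little for Dhh in replicate 2, whereas replicate 1 lies inside, above or below the control range depending on the gene, with Amh in replicates 2 and 3 at 28.5 and 23.2 CPM against at most 0.916 CPM in a control.

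Among the transcription factors, Sox9, the gene that commits the supporting cells to the Sertoli fate, had reads in every library. Its counts were 21, 16 and 20 in controls and 16, 83 and 65 in knockouts, or 3.87, 3.21 and 3.67 CPM against 3.21, 15.1 and 12.4 CPM. Knockout replicate 1 equalled the lowest control to the digits given, and replicates 2 and 3 were 4.20 (95% counting interval 2.96 to 5.99) and 3.44 (2.38 to 5.0) times the pooled controls. Sox8, a close relative of Sox9 that acts with it in the same cells, had 7, 1 and 0 reads in controls and 8, 42 and 27 in knockouts. The Sox8 controls therefore held 8 reads in all, near the limit of detection, and every knockout library lay above every control, by 1 read in replicate 1. Wt1, a zinc finger factor needed to form the gonad and keep Sertoli cells, had 3, 5 and 0 reads in controls against 2, 69 and 32 in knockouts. Its ratio to the pooled controls was 24.9 (11.9 to 59.9) in replicate 2 and 12.1 (5.45 to 30.3) in replicate 3, whereas replicate 1 lay within the controls. Gata4, which encodes a GATA factor that is also present in Leydig and interstitial cells, had 34, 25 and 39 reads in controls and 32, 227 and 107 in knockouts. At 6.27, 5.01 and 7.15 CPM in controls it was readily detected there, and knockout replicate 1 at 6.41 CPM lay inside the control range, with replicates 2 and 3 at 41.2 and 20.4 CPM.

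Of the secreted signals, Amh showed the widest gap between libraries. Its counts were 1, 1 and 5 in controls and 9, 157 and 122 in knockouts, or 0.184, 0.201 and 0.916 CPM against 1.80, 28.5 and 23.2 CPM. The 3 knockout libraries lay above the 3 controls without overlap, but by very different amounts, from 4.09 times the pooled controls in replicate 1 (95% counting interval 1.35 to 12.9) to 64.7 times in replicate 2 (30.7 to 163) and 52.6 times in replicate 3 (24.8 to 134). The counting intervals of knockout replicate 1 (0.825 to 3.42 CPM) and of control replicate 3 (0.298 to 2.14 CPM) overlapped. Dhh showed no such gap. It had 4, 19 and 9 reads in controls against 3, 21 and 34 in knockouts, and the 3.82 CPM of knockout replicate 2 stood beside 3.81 CPM in control replicate 2, so that those libraries did not differ beyond counting error. Dhh exons share 546 bp with Rhebl1 on the same strand and 1107 bp with the antisense gene Gm49442, and the Sox8 exons share 329 bp with the antisense gene 2810468N07Rik. The strand setting of the counting was not given in the sources used here, so the counts of Dhh and Sox8 are uncertain.

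The inhibin subunits followed the same libraries. Inha, the alpha subunit common to the inhibins, had 2, 8 and 10 reads in controls and 4, 124 and 52 in knockouts. Replicate 1 lay within the controls, while replicates 2 and 3 were 17.9 (11.1 to 30.3) and 7.85 (4.61 to 13.9) times the pooled controls. Inhbb, the beta B subunit shared by inhibin B and activin B, had 29, 30 and 20 reads in controls against 10, 101 and 54 in knockouts. Its level in knockout replicate 1, 2.0 CPM, was below all 3 controls (3.67 to 6.02 CPM), at 0.403 times the pooled controls (0.186 to 0.780), whereas replicates 2 and 3 reached 18.4 and 10.3 CPM. Inhbb thus had knockout libraries on both sides of the controls.

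Fshr, the receptor through which follicle-stimulating hormone acts on Sertoli cells, was at the limit of detection. It had 0, 0 and 3 reads in controls and 2, 6 and 9 in knockouts, and its intervals were correspondingly wide, from 2.26 to 52.0 times the pooled controls in replicate 3. Clu encodes clusterin, a secreted chaperone abundant in Sertoli cells and made in many other cells. It was the best measured of the 10, with 188, 163 and 203 reads in controls and 142, 542 and 481 in knockouts. Control libraries stood at 34.7, 32.7 and 37.2 CPM, knockout replicate 1 just below them at 28.5 CPM, and replicates 2 and 3 at 98.5 and 91.5 CPM, which is 2.82 (2.50 to 3.18) and 2.62 (2.32 to 2.97) times the pooled controls.

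The 10 genes therefore differed in what the controls already held. Sox9, Gata4, Inhbb and Clu had at least 16 reads in each of the 3 controls. Amh, Sox8, Wt1 and Fshr had at most 7 reads in any control, and Inha and Dhh lay between, with 2 to 19 reads. No gene exceeded every control in replicate 2 without doing so in replicate 3 or the reverse, although the counting intervals overlapped that of the highest control for Dhh and Fshr in both replicates and for Inhbb in replicate 3. In 7 of 10 genes (Sox9, Sox8, Wt1, Gata4, Amh, Inha and Clu) both replicates lay over 2 times the highest control, a limit chosen after the values were seen, against 1.88% of the 42446 genes with a read. The 10 genes were also chosen with earlier results of these data known, so the contrast is a description and no test. Fshr, Inhbb and Dhh were the 3 below that limit, Fshr by a narrow margin at 1.98 times. Every knockout library lay above every control for Amh and Sox8, 2 of 10 genes, against 3.86% of the genes with a read. For both, the counting interval of knockout replicate 1 overlapped that of the highest control.

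By the quasi-likelihood test of edgeR, with p-values adjusted by Benjamini-Hochberg over all 16311 genes that passed the filter on low counts, none of the 10 genes passed an adjusted p of 0.01, and 0.0% of all genes tested did. Only Sox9, Gata4, Dhh, Inhbb and Clu passed the filter. Sox8, Wt1 and Amh reached 10 reads in 2 libraries only and Fshr in none, and Inha fell just short with 10 reads in control replicate 3. Gata4 had a log2 fold change of 1.88 (SE 0.526, adjusted p = 0.460), Sox9 of 1.51 (SE 0.496, adjusted p = 0.460) and Clu of 1.06 (SE 0.351, adjusted p = 0.460). These 3 had an unadjusted p under 0.05, as did 6.05% of all genes tested in the direction of higher levels in knockouts. Inhbb was at 1.03 (SE 0.591, adjusted p = 0.605) and Dhh at 0.82 (SE 0.777, adjusted p = 0.739).

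The calls depended on which libraries and genes entered the fit. Without knockout replicate 1, 3 of the 5 genes that passed the filter with all 6 libraries passed an adjusted p of 0.01, at log2 fold changes of 2.34 for Gata4, 1.94 for Sox9 and 1.46 for Clu, where 1.69% of all genes did so as higher. Amh, Inha and Wt1 passed as well, but they met the filter in that fit through the 2 libraries where they are high, so that their calls are no separate support. Without knockout replicate 2 the log2 fold changes were 1.13 for Gata4 and 0.31 for Inhbb, and without knockout replicate 3 that of Dhh was 0.13, none of them called. For Dhh it was 0.42 without control replicate 1 and 1.59 without control replicate 2. With all 6 libraries and no filter beyond a total above 0, 7 of 10 passed, namely Amh, Wt1, Sox8, Inha, Gata4, Sox9 and Clu, against 1.05% of all genes. Amh, Wt1, Sox8 and Inha took most of their reads from knockout replicates 2 and 3, so that their calls are no separate support. Gata4, Sox9 and Clu had log2 fold changes of 1.92, 1.55 and 1.10, near those with the filter. Their SE, derived from the fold change and the test statistic, was smaller (0.292, 0.397 and 0.166). Their calls thus rest on how that fit estimates the spread, both its size and how certain it is taken to be. By DESeq2 none of the 10 passed 0.01, which 0.0528% of all genes tested did as higher, and 2 passed 0.05, Amh with a log2 fold change of 5.39 (adjusted p = 0.0239) and Gata4 with 1.92 (adjusted p = 0.0331), where 0.195% of all genes tested passed 0.05 as higher. DESeq2 adjusts p only for genes above a limit on the mean count, and nearly all reads of Amh come from knockout replicates 2 and 3, so that its call is no separate support. Without knockout replicates 2 and 3, a choice made after seeing the data, the knockout arm is 1 library assumed to vary like the controls, which alone give the spread, so that no call is read from it (0.052% of all genes tested were called as higher). The log2 fold changes were 0.06 for Gata4, -0.16 for Sox9, -0.29 for Clu, -1.31 for Inhbb and -1.73 for Dhh.

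Set per length of exon, the order of the 10 genes differed between libraries. In RPKM (CPM divided by the kilobases of exon), the mean control level was 10.1 for Clu, followed by 1.57 for Gata4, 1.18 for Inhbb, 0.866 for Sox9, 0.860 for Inha, 0.470 for Dhh, 0.260 for Amh, 0.159 for Sox8, 0.0837 for Wt1 and 0.0777 for Fshr. Clu stood clear of Gata4, but the ranges of the 3 controls overlapped in the other 8 of 9 neighbouring pairs, so the rest of the order is not fixed beyond the spread. For scale, the 12 germ cell genes had a median control level of 58.3 RPKM. In knockout replicate 2, Clu at 28.7 RPKM was followed by Amh at 17.1, Inha at 15.3 and Gata4 at 10.6, and in replicate 3 Clu at 26.6 RPKM was again followed by Amh at 13.9 and Inha at 6.71. Amh thus had rank 7 of the 10 by its mean control level and rank 2 in both of these knockout libraries.

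**Figure D2:**
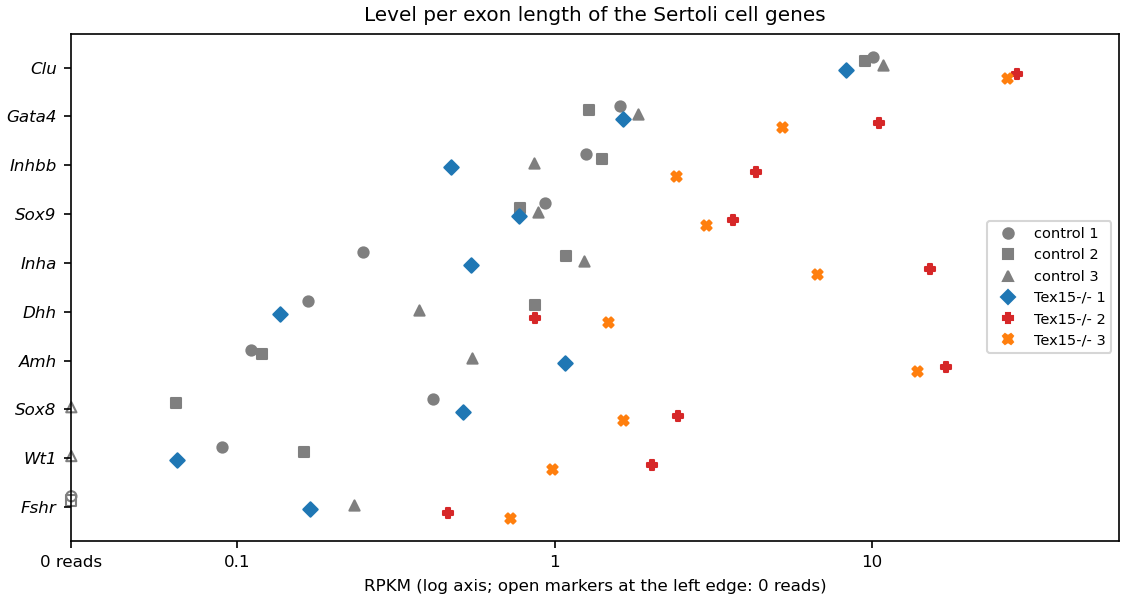
RPKM (log axis) of each Sertoli cell gene, ordered by mean control level, in the 3 control (grey) and 3 Tex15-/- libraries, 1 marker per library, with open markers at the left edge for 0 reads. Clu is highest in every library, and Amh moves from at most 0.549 RPKM in a control to 17.1 and 13.9 RPKM in knockout replicates 2 and 3.

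The makeup of the reads of the 10 genes differed in the same way. Clu made up 63.9% of the summed CPM of the 10 genes in controls, 62.3% in knockout replicate 1, 39.5% in replicate 2 and 48.9% in replicate 3. The Amh share was 0.795% in controls, 3.95% in replicate 1, 11.4% in replicate 2 and 12.4% in replicate 3. Put as a ratio of reads, the pooled controls held 79.1 Clu reads for each Amh read (exact 95% counting interval 38.2 to 198), knockout replicate 1 held 15.8 (8.08 to 35.2), replicate 2 held 3.45 (2.89 to 4.15) and replicate 3 held 3.94 (3.23 to 4.85). The pooled control value rests on 7 Amh reads, 5 of them in control replicate 3. Single controls gave 188, 163 and 40.6 Clu reads for each Amh read, and control replicates 1 and 2 together 175.5. The lowest single control, replicate 3, had an interval of 17.1 to 126, which lies above those of knockout replicates 2 and 3. Of the CPM by which replicate 2 exceeded the control mean, Clu gave 32.7%, Gata4 18% and Amh 14.4%, and in replicate 3 these shares were 42.8%, 10.7% and 17.2%.

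**Figure D3:**
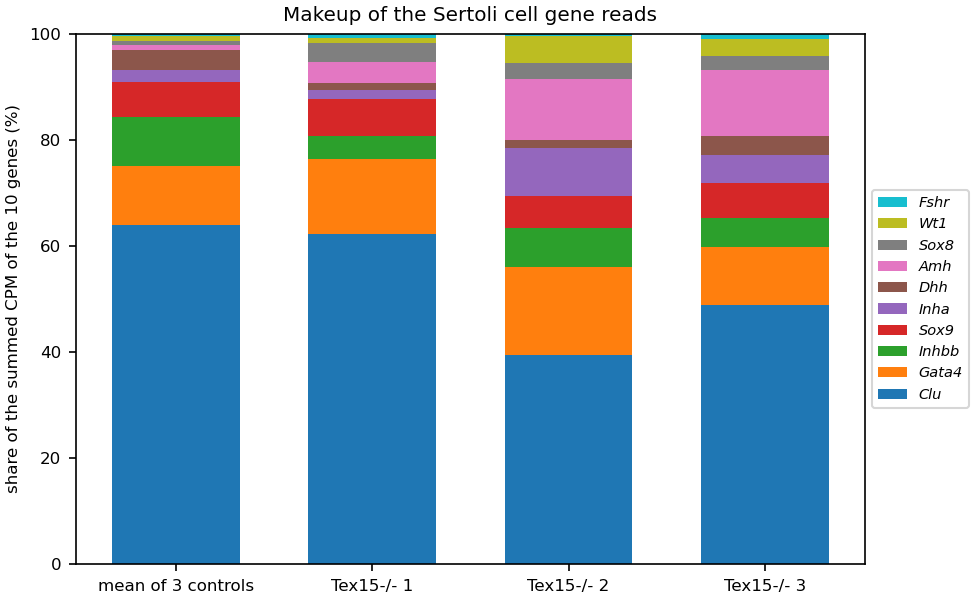
Share (%, linear axis from 0) of each gene in the summed CPM of the 10 Sertoli cell genes, for the mean of the 3 controls and for each Tex15-/- library. Clu takes 63.9% in controls and 39.5% and 48.9% in knockout replicates 2 and 3, where the Amh band widens to 11.4% and 12.4%.

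The ratio between the 2 high libraries ranged widely over the genes. The level in replicate 2 over that in replicate 3 was 2.28 for Inha, 2.06 for Wt1, 2.03 for Gata4 and 1.79 for Inhbb, near 1 for Clu (1.08), Sox9 (1.22) and Amh (1.23), 1.49 for Sox8, and below 1 for Fshr (0.637) and Dhh (0.590). Replicate 2 was the highest of the 6 libraries for 8 of the 10 genes and replicate 3 for Dhh and Fshr. The counting intervals of replicates 2 and 3 were apart for Inha, Wt1, Gata4 and Inhbb and overlapped for the other genes. For Dhh (21 and 34 reads) and Fshr (6 and 9 reads) the order of the 2 is thus not fixed beyond counting error.

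Other genes of Sertoli cells, listed by their known expression but also with earlier results known, were mostly above the controls in the same libraries. The 22 of them summed to 103 to 117 CPM in controls and to 95.6, 205 and 187 CPM in knockout replicates 1, 2 and 3. In controls most of the sum comes from Dmrt1 and Espn. By gene, 17 of 22 lay above every control in knockout replicate 2 and 17 in replicate 3, beside 21.8% and 24.1% of all genes with a read. Of the 22, 9 were over 2 times the highest control in both, beside 1.88%. The genes at either end of the list were picked after their values were seen. Cst9 was 25.3 and 17.1 times the control mean in replicates 2 and 3, a mean that rests on 1, 3 and 1 reads. Cldn11 was at 0.502 and 0.701 times, Trf at 0.629 and 0.219 times and Nr0b1 at 0.806 and 0.845 times, all 3 at low counts as well. At the lowest end, Fgf9, a growth factor of the early testis, was at 4.42, 3.01 and 2.02 CPM in controls and at 2.20, 0.182 and 0.571 CPM in knockouts. None of the 12 genes that passed the filter was called. Of these, 4 had an unadjusted p under 0.05 as higher, beside 6.05% of all genes tested, and 1, Fgf9, as lower. Among the 4, Mro had 4, 9 and 2 reads in controls and 15, 66 and 36 in knockouts. It met the filter through the knockout libraries, so it is no separate support. Dmrt1, a factor of both germ and Sertoli cells, was the highest of the list in controls at 38.2 CPM ± 7.26 (SD, n = 3) and was at 36.5 CPM ± 5.63 in knockouts. Espn and Tesc were likewise present in controls, at 26 and 7.58 CPM, with log2 fold changes of 0.27 and 0.18 (adjusted p of 0.693 and 0.844). Kitl, the ligand that Sertoli cells present to the KIT receptor of germ cells, resembled the 10 genes more closely, with 1.47, 4.81 and 2.75 CPM in controls and 1.60, 20.5 and 11.2 CPM in knockouts (log2 fold change 1.89, SE 0.717, adjusted p = 0.478).

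The receptors, targets and cofactors of the 10 genes gave a mixed picture. The 20 partner genes summed to 277 to 293 CPM in controls and to 269, 630 and 322 CPM in knockouts, so that replicate 3 was little above the controls. Of the 19 that passed the filter none was called, and 4 had an unadjusted p under 0.05, all as higher, beside 6.05% of all genes tested. These 4 were Gli1, Nr5a1, Zfpm2 and Lhx9, at 6.42, 20.3, 4.95 and 8.11 times the control mean in knockout replicate 2. In replicate 3 they were at 2.81, 4.47, 2.14 and 2.37 times. The hedgehog receptor Ptch1, which is also a target of the pathway that DHH activates, was at 49.0, 50.7 and 61.6 CPM in controls and at 50.1, 98.5 and 48.3 CPM in knockouts. Its partner Smo was at 20.6, 18.6 and 12.8 CPM against 15.6, 48.1 and 23.6 CPM. For both genes replicate 2 stood out, and replicate 3 of Ptch1 lay just below the lowest control, within counting error. Bmpr1a, a type I receptor for AMH, and the activin receptors Acvr2a and Acvr2b had log2 fold changes of 0.04, -0.17 and -0.27 (adjusted p of 0.945, 0.822 and 0.676). Inhba, the beta A subunit of inhibin and activin, had 3, 9 and 8 reads in controls and 8, 587 and 110 in knockouts and failed the filter.

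Markers of other somatic and blood cells were high in knockout replicate 2 for every list, and in replicate 3 for every list but the endothelial one. The 10 interstitial and peritubular genes summed to 83.3 to 95.6 CPM in controls and to 80.0, 1996 and 475 CPM in knockouts, with Col3a1 at most 17.4 CPM in a control and at 600 and 126 CPM in knockout replicates 2 and 3, and Col1a1 at most 30.1 CPM and at 383 and 99.1 CPM. The 8 foetal Leydig cell genes summed to 58.4 to 110 CPM in controls and to 74.9, 719 and 245 CPM in knockouts, among them Cyp17a1 (243 and 80.1 CPM in replicates 2 and 3) and Scarb1 (117 and 52.3 CPM). Insl3, a defining Leydig marker, had 0 reads in all 3 controls and 0, 29 and 2 reads in knockout replicates 1, 2 and 3. Endothelial genes (8, with Cdh5 and Tek the highest by the mean of the 6 libraries) were at 64.7 to 72.2 CPM in controls and at 57.9, 246 and 69.3 CPM in knockouts, and macrophage and blood genes (12, with Alas2 and Csf1r the highest by the same mean) were at 30.8 to 36.5 CPM against 26.7, 76.3 and 90.4 CPM. Of these blood genes Hba-a1 had 0 reads in all controls and 0, 4 and 2 in knockouts, whereas Hba-a2 had 6, 5 and 5 against 0, 17 and 23. Within that list Alas2 was at 14.7, 20.7 and 14.1 CPM in controls and at 15.4 and 16.7 CPM in replicates 2 and 3, and Csf1r was at 6.08, 6.22 and 4.40 CPM in controls and at 16.9 and 20.2 CPM. In knockout replicate 1 no list was above the highest control. The Sertoli cell genes were 1.33 times as high in replicate 2 as in replicate 3, against 4.20 times for interstitial, 3.55 for endothelial, 2.94 for Leydig, 0.844 for macrophage and blood, and 0.990 for germ cell genes. The part of these other cell types in the levels of the Sertoli cell genes was not tested.

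**Figure D4:**
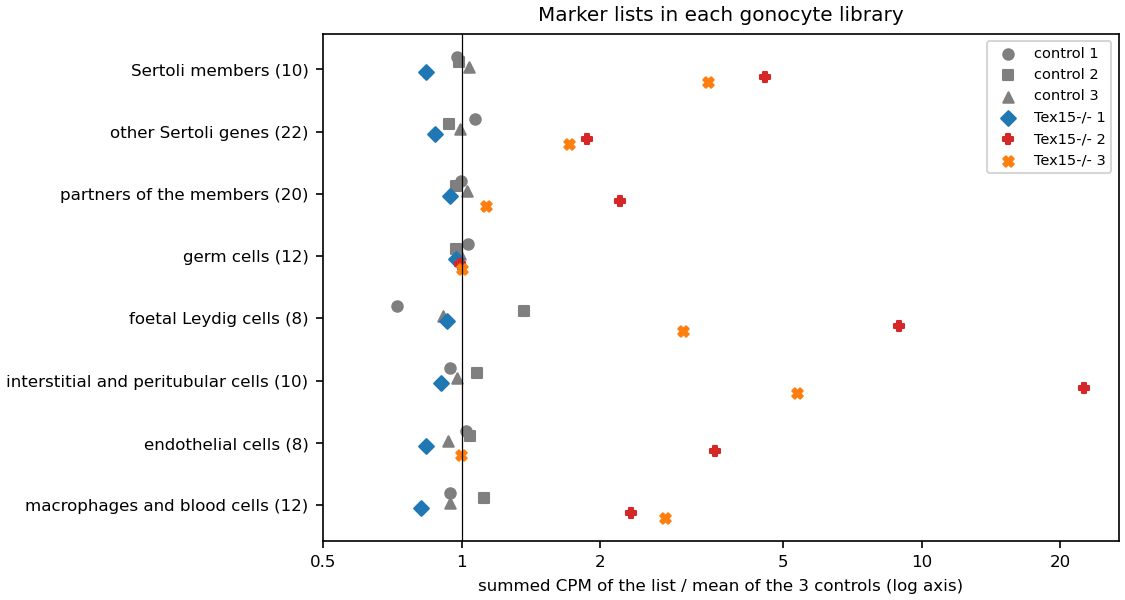
Summed CPM of each marker list divided by the mean of the 3 controls (log axis), with the number of genes in parentheses and 1 marker per library. The 10 Sertoli cell genes are at 0.838, 4.57 and 3.43 in Tex15-/- replicates 1, 2 and 3, interstitial and peritubular genes at 0.904, 22.6 and 5.37, and the sum of the germ cell genes stays near 1 in all 6 libraries.

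The genes outside the 10 whose profile over the 6 libraries was most like their sum, by the root mean square difference of centred log2 CPM, were Lhcgr (0.176), Pdgfrb (0.237), Acsbg1 (0.238), Selenop (0.239), Tshz3 (0.240), Snai2 (0.243), Mertk (0.250), Armcx1 (0.255), Me1 (0.265) and Tgfbr2 (0.270), where the median over all genes that passed the filter was 1.01. Lhcgr, the luteinising hormone receptor of Leydig cells, was at 2.40, 2.41 and 2.75 CPM in controls and at 1.80, 12.2 and 6.85 CPM in knockouts. This is a description over 6 libraries.

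Promoter sequences were examined because these genes were high in the same libraries. RefSeq (GRCm38.p6) windows from 250 bases before to 50 bases after the start were at hand for 5 of them (Inha, Inhbb, Dhh, Sox8 and Fshr). Each was searched on both strands for 4 short motifs. The SOX core was ACAAT and was taken as the letters common to sites of SOX factors. The core for GATA factors was GATAA in the same sense. For NR5A1, a steroidogenic factor of gonadal somatic cells, the letters AGGTCA were used. The E-box was CACGTG, which reads the same on both strands. None of the 4 motifs occurred in more than 2 of the 5 promoters. The SOX core occurred in Inhbb, at position 2, against 31.0% of 32851 promoters, and the GATA core in Dhh and Fshr, against 25.4%. The NR5A core occurred in Inha, against 16.3%, and the E-box in Sox8 and Fshr, against 7.15%. The Inha, Fshr and Sox8 windows are shown, 5′ to 3′ on the strand of the gene, since they hold the NR5A and E-box matches and the GATA matches of Fshr, with each match in capitals. Counted from the RefSeq start as position 1, with no position 0, the Inha match starts at -69, the Fshr GATA matches at -197 and -27 with its E-box at -61, and the Sox8 match at -152. The GATA match of Dhh, in a window not shown, starts at -221. The RefSeq start of Inha lies inside the gene as GENCODE M21 draws it, which starts at chr1:75507077. The whole Inha window, with its NR5A match, thus lies within that gene and not before its GENCODE start. The other windows share their start with GENCODE.
Inha, chr1:75507359-75507658, plus strand: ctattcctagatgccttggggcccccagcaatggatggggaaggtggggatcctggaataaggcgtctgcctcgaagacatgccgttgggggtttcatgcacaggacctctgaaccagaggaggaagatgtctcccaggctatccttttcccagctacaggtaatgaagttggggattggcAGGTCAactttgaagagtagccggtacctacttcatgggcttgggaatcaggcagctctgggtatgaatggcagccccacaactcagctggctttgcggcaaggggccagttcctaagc
Fshr, chr17:89200626-89200925, minus strand: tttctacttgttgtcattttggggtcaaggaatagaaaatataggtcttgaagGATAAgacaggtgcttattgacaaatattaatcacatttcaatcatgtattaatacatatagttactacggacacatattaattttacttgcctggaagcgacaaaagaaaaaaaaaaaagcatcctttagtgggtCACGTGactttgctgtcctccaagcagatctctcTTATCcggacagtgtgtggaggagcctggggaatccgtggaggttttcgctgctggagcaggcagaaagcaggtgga
Sox8, chr17:25570637-25570936, minus strand: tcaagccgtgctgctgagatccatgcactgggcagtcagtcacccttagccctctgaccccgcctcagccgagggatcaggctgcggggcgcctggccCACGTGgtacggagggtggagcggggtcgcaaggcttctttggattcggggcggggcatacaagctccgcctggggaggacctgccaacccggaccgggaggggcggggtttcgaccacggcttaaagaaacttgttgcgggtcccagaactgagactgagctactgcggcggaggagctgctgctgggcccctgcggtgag
A match is a stretch of letters and not a shown site, and with 5 windows the counts carry no comparison with all promoters. The 3 genes differed in their data as well, with Inha at 22.5 and 9.90 CPM in knockout replicates 2 and 3, Sox8 at 7.63 and 5.14 CPM and Fshr at 1.09 and 1.71 CPM.

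In the genome (GRCm38, GENCODE M21) no 2 of the 10 genes overlap. Inha and Inhbb are on chromosome 1, Sox8 and Fshr on chromosome 17 and Gata4 and Clu on chromosome 14. Amh spans chr10:80805243-80807648, Sox9 chr11:112782224-112787760, Wt1 chr2:105126529-105173616 and Dhh chr15:98891152-98898540. Gata4 (chr14:63198922-63271692) and Clu (chr14:65968483-65981547) differed in the ratio of knockout replicate 2 to 3, at 2.03 and 1.08.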

How the data were processed

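RNA was measured in tdTomato-sorted E16.5 gonocytes of 3 Tex15+/- and 3 Tex15-/- libraries, grouped by their labels. The authors aligned the reads with HISAT2 to GRCm38, counted them with htseq-count (HTSeq 0.11.1 in the submitters' processing notes) and deposited raw counts, 1 whole number for each Ensembl gene. The strand setting was not given in the sources used here. Rows that name no gene (61.3% to 67.3% of each table) were left out of library sizes. Their share was 64.3% to 65.2% in controls and 67.3%, 61.3% and 62.9% in knockout replicates 1, 2 and 3. Knockout replicates 2 and 3 also had the fewest genes with reads, 28056 and 29770, against 30770 to 32972 in the other libraries. Of 54838 identifiers, 54723 matched a GENCODE M21 symbol, and library totals were 4893265 to 5697020 gene reads.

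Counts were scaled by TMM, filtered with filterByExpr (minimum count 10, minimum total 15) and tested with edgeR 4.0.16 (quasi-likelihood test, R 4.3.3) with Benjamini-Hochberg adjustment over all 16311 genes. A call is an adjusted p under 0.01. CPM used TMM-scaled library sizes and RPKM the union of exons. Counts carry exact 95% Poisson intervals, and ratios of a knockout library to the pooled control counts carry exact binomial ones, all for counting error only. The alternatives were DESeq2 1.42.0, other scalings and filters, a newer quasi-likelihood estimate, a replicate block and single libraries left out. The test was checked on simulated data in which all libraries varied to the same degree. That check does not cover knockout libraries that differ among themselves as these do. Likeness of profiles used log2(CPM + 0.5). Named were the 10 genes, Tex15, from the other Sertoli genes and the partners those with an adjusted p under 0.05 (there were none) and the 4 highest in controls and in any knockout library, from each other list the 2 highest, and the 10 genes most alike. A gene that this rule names is not reported here. The 10 genes and all lists were chosen with earlier results of these data known. Small RNA and other libraries of the series were not used here.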

Additional observations from a re-analysis of the deposited data

How the results depend on the processing

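Of the 10 Sertoli cell genes, none was called under another scaling (total gene counts or RLE size factors), a minimum of 10 counts in every library, DESeq2, the newer quasi-likelihood estimate or an adjusted p under 0.05 in edgeR. With no filter on low counts 7 were called, and with 1 library left out 0 to 6, the 6 without Tex15-/- replicate 1. The 7 and the 6 include genes that fail the filter with all libraries and are high mainly in Tex15-/- replicates 2 and 3. The 22 other Sertoli genes gave 5 calls without the filter and 0 to 6 with 1 library left out, and the 20 partner genes 5 and 0 to 4. All these calls were as higher, and the 6 and the 4 came without Tex15-/- replicate 1. Of all genes tested, 1.05% were called as higher without the filter and 1.69% without that library. Over all genes and in either direction, 0 of 16311 were called by the fit as reported, 488 of 42446 with no filter, 1 with at least 10 counts in every library, 14 by DESeq2, 2 by the newer estimate, 3 at an adjusted p under 0.05, and 0 to 388 with 1 library left out, the 388 of 17520 without Tex15-/- replicate 1. At an unadjusted p under 0.05, 987 genes were higher in knockouts. The log2 ratio of the summed CPM, 1.56, was 1.52 by total counts, 1.78 in RPKM, 2.16 without Clu and 1.09 to 2.0 with 1 library left out. Without Tex15-/- replicates 2 and 3, an alternative chosen after seeing the data in which the lone knockout library is assumed to vary like the controls, the summed ratio was -0.26, the fold changes of Sox9, Clu, Dhh and Inhbb were -0.16, -0.29, -1.73 and -1.31, and 18 genes were called in all. The causes were not tested. Counts of 0 to 10 reads limit Amh, Sox8, Wt1, Fshr and Inha in the controls.

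Replicate numbers are shared by the groups. Deviations of same-numbered libraries correlated at -0.143, -0.0434 and -0.00753, and those of differently numbered ones at -0.0862 to 0.127, so no pairing by number was seen. With so few libraries in a group, and knockout libraries that differ among themselves, this check cannot exclude one. With a replicate block 0 of the 10 genes and 0 genes in all were called, the 5 fitted log2 fold changes were 0.68 to 1.58, and the adjusted p-values were 0.679 to 0.788. It changed no call.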
